A study of Homo sapiens with 6 samples.

Results

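Satellite repeats are tandem arrays of DNA units, and the loci described here are those whose repeat name began with one of 15 satellite patterns (ALR/Alpha, BSR/Beta, GSAT, HSAT, SATR, SST1, SAR, ACRO1, CER, LSAU, MSR1, REP522, D20S16, TAR1 and SUBTEL). They numbered 611 of the 433837 listed repeat loci and carried 19 of the 5230 repeat names, and no listed locus had a SUBTEL name. The rule reads repeat names, and it was written with earlier results of these data known. RNA reads were counted per repeat locus in HEK293T, a human embryonic kidney cell line expressing the large T antigen of SV40. In 3 libraries the cells had been transfected with 100 nM of a chimeric antisense oligonucleotide (ASO) against the small nuclear RNA U7, which the labels call a U7 snRNA knockdown. In the other 3 libraries they had received a GFP ASO as control, with the genotype given as WT, and the series design describes the 3 libraries per ASO as biological replicates. All 6 libraries came from total RNA of this single cell line after depletion of ribosomal RNA, and the time after transfection is not given in the sources used here. The tables hold no gene rows, so the cell line's markers were not analysed here. Reads at loci with the name U7 were 10, 4 and 6 with the U7 ASO and 10, 6 and 12 with the control ASO, too few to check the knockdown.

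Alpha satellite builds the centromeres of human chromosomes, the sites where the kinetochore assembles. Beta and gamma satellites and the classical human satellites lie mostly in the heterochromatin around centromeres, and ACRO1 is a satellite of the short arms of acrocentric chromosomes, which also carry the ribosomal RNA genes. Most satellite DNA is packed as constitutive heterochromatin and yields little RNA. Noncoding transcripts from satellites are nevertheless known in human cells, and classical satellites are a known site of transcription after heat shock. Arrays of near-identical units are hard to tell apart by short reads, so a read can be placed on another copy of its family. The tables give an identifier with a running number per locus, and no position, so where a locus lies is not stated here. A cluster below means satellite loci whose running numbers follow one another at steps of at most 20.

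Between the ASO groups, GSAT, the name of a gamma satellite, was the single satellite name of the 16 tested that passed, and it was raised in the U7 ASO libraries. It had 0 reads in every control ASO library, so it entered the test only through the U7 ASO libraries, and its call was lost without U7 ASO replicate 3. Among single loci, ACRO1_dup19_1309715 and ACRO1_2506729 were raised, with 0 reads in the control ASO libraries, and HSAT4_dup12_4970317 was lowered, with 0 reads in the U7 ASO libraries. These 3 loci also entered the test only through the group in which they had reads, and each call was lost when single libraries were left out, that of HSAT4_dup12_4970317 for every one of the 6. The other 15 names did not pass. Of these 15, 11 had a positive log2 fold change, and alpha satellite, HSAT4, MSR1 and REP522 a negative one. Among all tested names outside simple repeats 68.2% were positive. The test was edgeR's quasi-likelihood test over all repeat names or all loci, with Benjamini-Hochberg adjustment over all features tested and a threshold of 0.05.

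Satellite loci held 11083, 13808 and 16801 reads in the U7 ASO libraries and 8402, 9541 and 11662 reads in the control ASO libraries. These were 0.530%, 0.588% and 0.596% of all repeat reads with the U7 ASO, against 0.415%, 0.495% and 0.589% with the control ASO. The groups overlapped, since control ASO replicate 3 lay between U7 ASO replicates 2 and 3. The exact 95% binomial (Clopper-Pearson) intervals spanned 0.521% to 0.605% in the U7 ASO libraries and 0.406% to 0.600% in the control ASO libraries. They cover counting error only and take each read as independent. The counting of pairs is not given, so they may be too narrow even for counting error. The mean share was 0.571% ± 0.036 with the U7 ASO and 0.500% ± 0.087 with the control ASO (SD, n = 3 each). A single locus, ACRO1_dup4_5177206, took 65.3% to 73.0% of the satellite reads in the U7 ASO libraries and 55.1% to 65.2% in the control ASO libraries. Without it the share was 0.184% ± 0.035 with the U7 ASO and 0.202% ± 0.060 with the control ASO (SD, n = 3 each), so the order of the means turned round. Repeat reads in all numbered 2089822 to 2819540 in the U7 ASO libraries and 1926892 to 2025985 in the control ASO libraries.

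**Figure D1:**
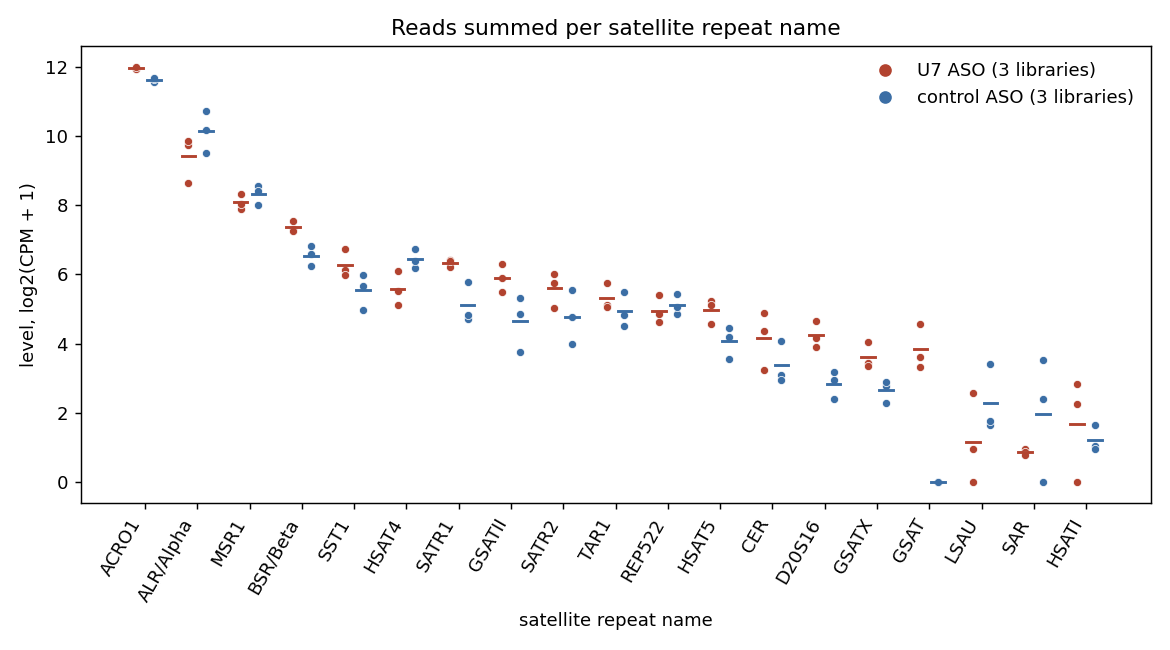
Level of each of the 19 satellite repeat names on a log2(CPM + 1) scale, where CPM is edgeR's library-scaled read count (TMM); points are the 3 libraries of each group and bars their mean. The 3 GSAT points of the control ASO libraries lie on each other at 0, whereas the alpha satellite (ALR/Alpha) points of both groups overlap.

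The 16 tested names had a median log2 fold change (U7 ASO over control ASO) of 0.79, against -0.01 over all 2236 tested names. Of the 16, 12 were positive (75.0%) and 4 negative, where 49.4% of all tested names and 68.2% of those outside simple repeats were positive. A single name was raised and 0 were lowered, where the background over all tested names was 1.52% raised and 1.03% lowered. An unadjusted p under 0.05 was found for 10 of the 16 names (62.5%) and for 326 of all names (14.6%). Outside simple repeats 16.3% of the tested names had one. At the level of single loci, 6 of the 66 tested satellite loci (9.09%) had one, against 12.3% of all tested loci. In 8 of the 16 names all 3 U7 ASO values exceeded all 3 control values, where the background for such names was 9.93%. In 1 name, HSAT4, they were all lower, where the background was 10.2%. Among the 8 is GSAT, which entered the test only through the U7 ASO libraries, so its lack of overlap was given beforehand. GSAT also counts in the median, the positive names and the unadjusted p-values above. The other 15 names had a median log2 fold change of 0.77, with 11 positive and 4 negative. More of the tested names are simple repeats (1199) than other repeats (1037), and the 2 sorts differed. Names outside simple repeats had a median log2 fold change of 0.17, and 16.8% of them lay higher in all 3 U7 ASO libraries without overlap, while simple repeats had a median of -0.23 and 48 of them lay so.

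Most satellite names are sums over many loci with few reads each. Loci under the count filter took 25.0%, 31.6% and 30.8% of all repeat reads in the U7 ASO libraries, against 20.7%, 23.5% and 26.9% in the control ASO libraries, and the groups overlapped. Among satellite reads these shares were 10.4%, 10.1% and 11.7% with the U7 ASO and 9.32%, 9.93% and 8.24% with the control ASO, which did not overlap. The part of these loci in the values of the satellite names was not tested.

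Gamma satellite names gave the sole call. GSAT held 24, 22 and 64 reads in the U7 ASO libraries and 0 reads in each of the 3 control ASO libraries. The name entered the test only through the U7 ASO libraries. Against a floor of 3 reads over the control group it was at least 28.9-fold higher (adjusted p = 0.00313, edgeR quasi-likelihood test), and the call was lost without U7 ASO replicate 3 (adjusted p = 0.0971). None of the 8 listed GSAT loci passed the count filter on its own, and the leading one, GSAT_dup6_2503999, held 23.6% of the GSAT reads. A cluster of 5 consecutively listed GSAT loci, with no locus of another name between them, held 22, 14 and 54 reads in the U7 ASO libraries and 0 in every control ASO library. Reads at a given GSAT locus came from 1 or 2 of the U7 ASO libraries, never from all 3.

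GSATII and GSATX are other gamma satellite names. GSATII had 44.2, 58.8 and 78.6 CPM in the U7 ASO libraries, against 27.8, 39.2 and 12.5 CPM in the control ASO libraries. All 3 U7 ASO values lay above the controls, and the name did not pass (log2 fold change 1.20, SE 0.40, adjusted p = 0.138, edgeR). Among the alternatives it passed only without U7 ASO replicate 1 (adjusted p = 0.0493, over a range up to 0.597). GSATII_dup2_5177273, its leading locus, held 44, 44 and 26 reads with the U7 ASO and 18, 18 and 1 with the control ASO (adjusted p = 0.527, edgeR). GSATII loci with a read numbered 12, 16 and 23 with the U7 ASO and 6, 10 and 6 with the control ASO. Over all repeat loci those with a read numbered 118352 to 160749 with the U7 ASO and 96631 to 120658 with the control ASO. GSATX averaged 11.5 ± 3.45 CPM with the U7 ASO and 5.40 ± 1.36 CPM with the control ASO (SD, n = 3 each). The groups of GSATX did not overlap, and the 95% interval of its log2 fold change was -0.43 to 2.61. One locus, GSATX_5181183, carried 86.0% of the GSATX reads, with 23, 22 and 26 reads in the U7 ASO libraries and 7, 12 and 8 reads in the control ASO libraries.

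**Figure D2:**
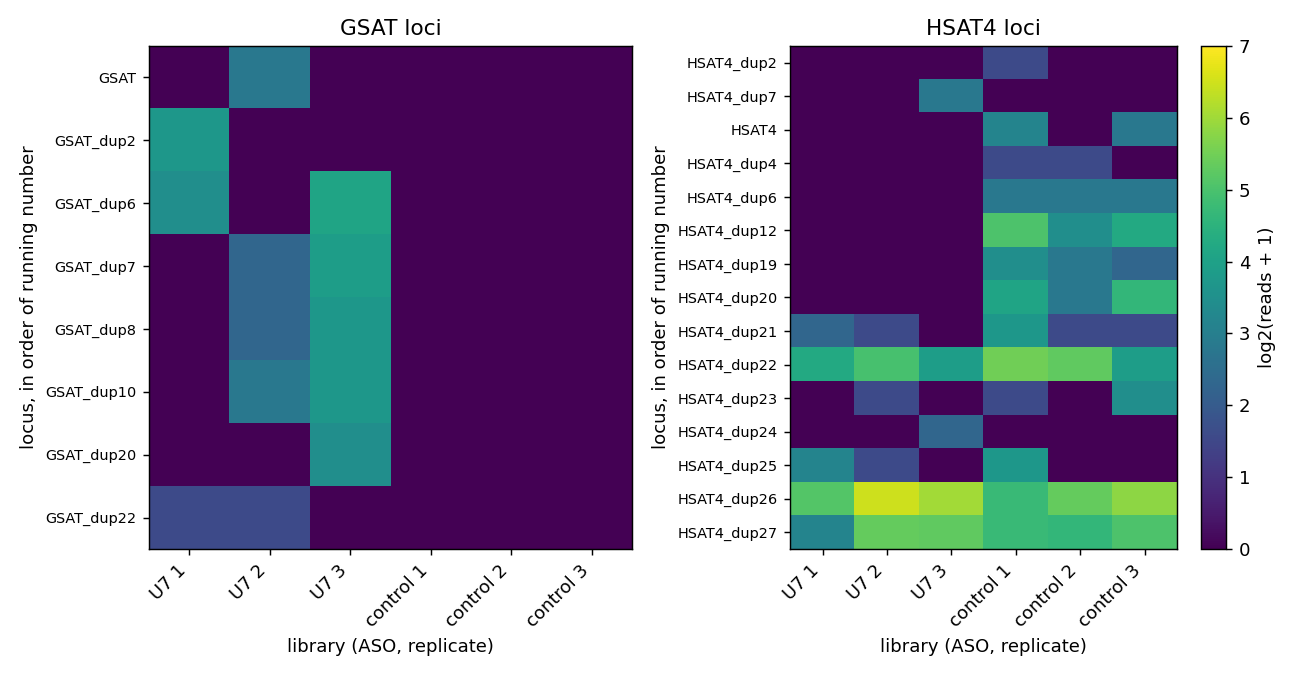
Reads per library at the 8 GSAT loci (left) and the 15 HSAT4 loci (right), one row per locus in the order of running numbers, with colour as log2(reads + 1) and U7 ASO libraries left of control ASO libraries. The GSAT panel is at 0 in all control ASO libraries. In the cluster that holds HSAT4_dup12_4970317, the 5 neighbouring HSAT4 loci from dup4 to dup20, picked after their values were seen, are at 0 in all U7 ASO libraries.

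HSAT4, a name of the human satellites, went the other way within 1 cluster. Its sum was 33.9, 67.4 and 44.8 CPM in the U7 ASO libraries and 106, 71.9 and 82.5 CPM in the control ASO libraries. The groups did not overlap, and the name did not pass (log2 fold change -0.83, SE 0.31, adjusted p = 0.203, edgeR). At single loci, HSAT4_dup12_4970317 held 0 reads in each U7 ASO library and 32, 10 and 18 reads in the control ASO libraries. It was lowered (adjusted p = 0.0265, edgeR), by at least 21.8-fold against a floor of 3 reads over the U7 ASO group. It entered the test only through the control ASO libraries. This call was lost with limma-voom, without a count filter, under the replicate block and without any single library, with adjusted p-values up to 0.353.

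The zero reads covered only a part of the HSAT4 cluster. In it, 5 neighbouring HSAT4 loci, picked after their values were seen (dup4, dup6, dup12, dup19 and dup20), held 0 reads in every U7 ASO library and together 66, 30 and 52 reads in the control ASO libraries. The 4 loci of other names between them also had 0 reads in every U7 ASO library. In the control ASO libraries they held 10, 13 and 2 reads. Over all listed repeat loci 26.8% had reads in control ASO libraries only. As the loci of this stretch stand side by side in the list, they cannot be taken to repeat the measurement independently. The remaining 7 HSAT4 loci of the cluster held 72, 164 and 120 reads in the U7 ASO libraries and 122, 104 and 113 reads in the control ASO libraries, which overlap. HSAT4_dup26_4970358, the HSAT4 locus with the most reads, held 34, 88 and 64 reads with the U7 ASO and 26, 40 and 55 reads with the control ASO (log2 fold change 0.50, SE 0.48, adjusted p = 0.851, edgeR). Without that leading locus the HSAT4 sum passed as lowered (log2 fold change -1.47, adjusted p = 0.0244, edgeR; adjusted p from 0.0244 to 0.611 over all alternatives).

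HSAT5 and HSATI are further human satellite names. HSAT5 had 36.7, 22.6 and 33.4 CPM in the U7 ASO libraries and 10.7, 20.9 and 17.4 CPM in the control ASO libraries. Its groups did not overlap, and it did not pass (log2 fold change 0.92, SE 0.44, adjusted p = 0.343, edgeR). Its leading locus, HSAT5_dup8_1309490, was under the count filter and held 14, 7 and 28 reads with the U7 ASO and 0, 2 and 8 with the control ASO. HSATI held 8, 15 and 0 reads in the U7 ASO libraries and 4, 2 and 2 reads in the control ASO libraries, and was under the count filter.

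Alpha satellite was the second most abundant name, with 17.5% of all satellite reads. ALR/Alpha had 395, 857 and 926 CPM in the U7 ASO libraries and 730, 1139 and 1677 CPM in the control ASO libraries. The groups overlapped, with U7 ASO replicate 1 lowest and control ASO replicate 3 highest. The log2 fold change of -0.70 (SE 0.28) had a 95% interval of -1.30 to -0.11 and did not pass (adjusted p = 0.238, edgeR). It passed as lowered without a count filter (adjusted p = 0.0214) and under the replicate block (adjusted p = 0.00427), over a range up to 0.577 in all alternatives.

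Alpha satellite reads came from few places. Of the 111 listed alpha loci, 14 in 2 clusters held 75.5% of the alpha reads. The first cluster, of 8 loci, held 463, 1089 and 1420 reads in the U7 ASO libraries and 814, 1244 and 2103 reads in the control ASO libraries. In the second cluster, of 6 loci, the reads numbered 133, 466 and 548 with the U7 ASO and 202, 327 and 627 with the control ASO. Scaled for library size, the first cluster had 293, 674 and 777 CPM with the U7 ASO and 531, 841 and 1318 CPM with the control ASO. The second had 84.1, 289 and 300 CPM with the U7 ASO and 132, 221 and 393 CPM with the control ASO. In both clusters the groups overlapped. The leading locus, ALR/Alpha_dup9_444636, differed by -0.65 on the log2 scale (SE 0.36, adjusted p = 0.555), and ALR/Alpha_dup24_610268, which leads the second cluster, by -0.05 (SE 0.45, adjusted p = 0.990), both from edgeR. ALR/Alpha_dup5_444631, the third of the alpha loci by reads, held 4, 98 and 95 reads with the U7 ASO and 97, 125 and 159 with the control ASO (adjusted p = 0.626, edgeR). Among the 19 tested alpha loci, 0 passed, 16 had a negative and 3 a positive log2 fold change, and the median was -0.45. Over all tested loci 52.7% were positive. In 16 of these 19 loci U7 ASO replicate 1 had the lowest CPM of the 6 libraries, and in 13 control ASO replicate 3 had the highest. Since many of the loci belong to the same cluster, they do not repeat the measurement independently.

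Beta satellite was higher in all 3 U7 ASO libraries. BSR/Beta had 157, 184 and 150 CPM in the U7 ASO libraries, against 75.0, 94.5 and 111 CPM in the control ASO libraries. Its log2 fold change was 0.81 (SE 0.24, 95% interval 0.31 to 1.31), and it did not pass (adjusted p = 0.0948, edgeR). It passed with DESeq2 (adjusted p = 0.0333), under the replicate block (adjusted p = 0.0289) and without its leading locus (adjusted p = 0.0275), and over all alternatives the adjusted p ran up to 0.367. All 7 tested beta loci had positive log2 fold changes, from 0.19 to 1.64, and 0 of them passed. Among all tested loci 52.7% were positive. Since a read can be placed on another copy of its family, the 7 loci cannot be taken to repeat the measurement independently. The 43 beta loci under the filter summed to 85.2 ± 17.5 CPM with the U7 ASO and 38.8 ± 5.27 CPM with the control ASO (SD, n = 3 each). The tested loci summed to 78.6 ± 12.5 CPM with the U7 ASO and 54.7 ± 20.04 CPM with the control ASO. The leading beta locus, BSR/Beta_dup317_4969906, held 46, 53 and 70 reads with the U7 ASO and 22, 36 and 78 with the control ASO, which overlap (adjusted p = 0.955, edgeR). A cluster of 20 beta loci held the most beta reads, 1014 over the 6 libraries.

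**Figure D3:**
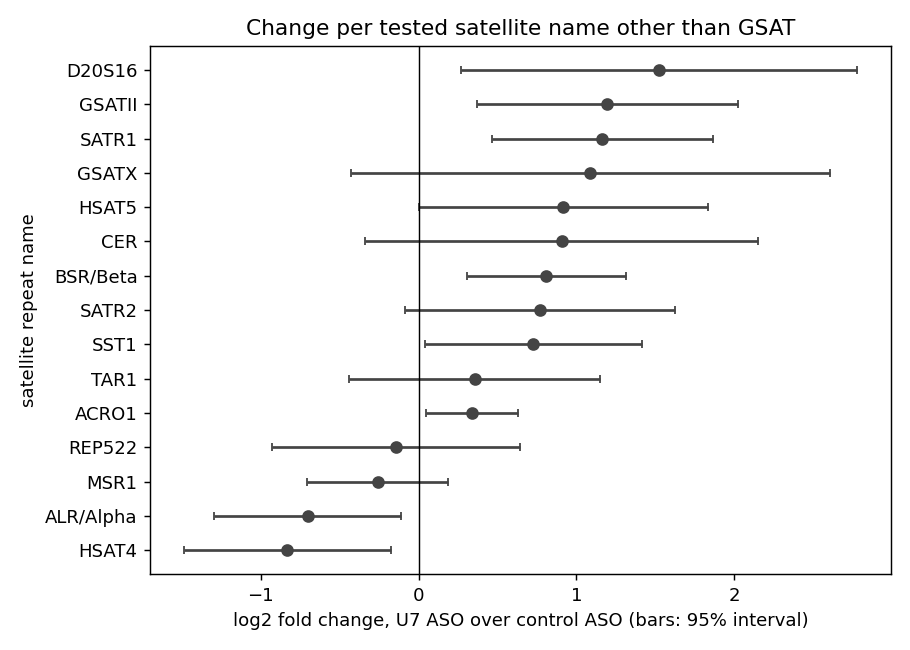
Log2 fold change (U7 ASO over control ASO) of the 15 tested satellite names other than GSAT, with 95% intervals from edgeR. In 7 names the interval lies above 0, in ALR/Alpha and HSAT4 it lies below 0, and in 6 it includes 0; none of the 15 passed after adjustment.

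ACRO1, the satellite of acrocentric short arms, was the most abundant name. It had 3925, 3912 and 4078 CPM in the U7 ASO libraries and 2986, 3189 and 3246 CPM in the control ASO libraries. The groups did not overlap and the spread within each was small, yet the name did not pass (log2 fold change 0.34, SE 0.14, 95% interval 0.05 to 0.63, adjusted p = 0.251, edgeR). ACRO1_dup4_5177206 carried 96.4% of the ACRO1 reads, with 8095, 9108 and 10970 reads in the U7 ASO libraries and 5474, 5769 and 6429 reads in the control ASO libraries. In the fit over loci, which has its own scaling, its log2 fold change was 0.54 (SE 0.21) and it did not pass (adjusted p = 0.245, edgeR). It passed with DESeq2 (adjusted p = 0.0143), with limma-voom (adjusted p = 0.00716) and without a count filter, while leaving out libraries gave adjusted p-values up to 0.605.

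The loci listed beside ACRO1_dup4_5177206 had values on the same side. All 11 tested loci within 12 running numbers of it, itself included, had positive log2 fold changes, and 0 passed. Among all tested loci 52.7% were positive. Since the 11 loci stand side by side in the list, they cannot be taken to repeat the measurement independently. ACRO1_dup3_5177205, its direct neighbour, had one of 0.48 (SE 0.35), L1MB8_dup8_5177207 on the other side one of 0.93 (SE 0.32), and L1PA10_dup6_5177200 one of 1.06 (SE 0.36). A small-subunit ribosomal RNA locus, SSU-rRNA_Hsa_dup4_5177199, stands 7 running numbers before it and had a log2 fold change of 0.82 (SE 0.38). Summed over all its loci the small-subunit ribosomal name differed by -0.52 on the log2 scale (SE 0.32, adjusted p = 0.500, edgeR), with 4666 to 16588 CPM in the U7 ASO libraries and 10348 to 25635 CPM in the control ASO libraries. Reads of the ribosomal RNA names made up 19.4% to 22.2% of the repeat reads in the U7 ASO libraries and 14.8% to 22.3% in the control ASO libraries, and their part in the ACRO1 values was not tested.

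**Figure D4:**
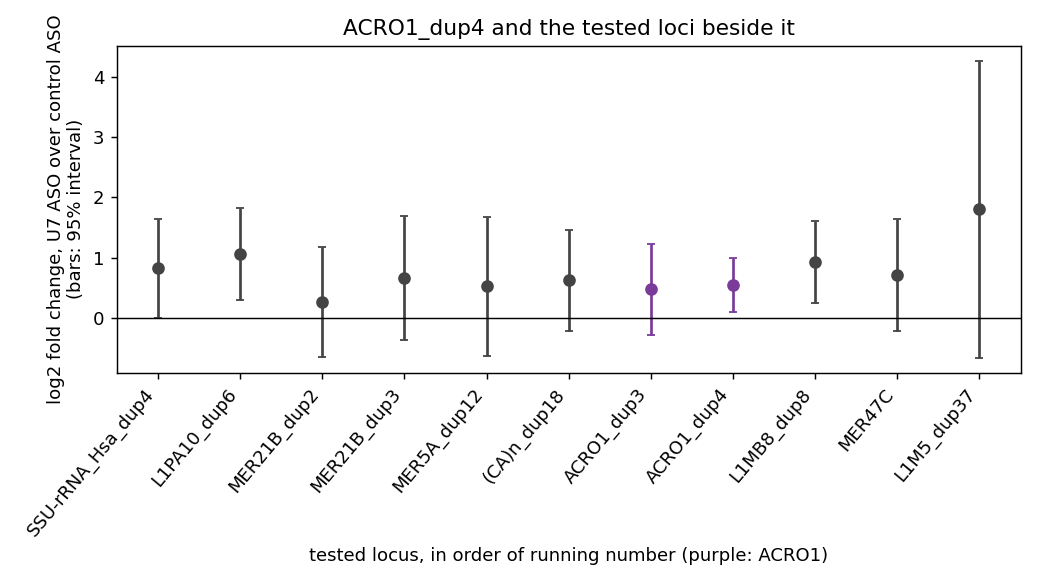
Log2 fold change (U7 ASO over control ASO) with 95% interval from edgeR for ACRO1_dup4 and the other tested loci within 12 running numbers, in list order, ACRO1 loci in purple. All 11 points lie above 0, where 52.7% of all tested loci were positive, and the interval of ACRO1_dup4 (0.10 to 0.99) is the narrowest.

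A pair of ACRO1 loci apart from this cluster passed. ACRO1_dup19_1309715 held 33, 12 and 38 reads in the U7 ASO libraries and ACRO1_2506729 held 18, 18 and 35, and both held 0 reads in every control ASO library. Both entered the test only through the U7 ASO libraries. They were at least 25.4-fold (adjusted p = 0.00944) and at least 21.7-fold higher (adjusted p = 0.0171), against a floor of 3 reads over the control ASO group, by edgeR. Other loci within 20 running numbers of ACRO1_dup19_1309715, 6 in number, held 35 U7 ASO reads and 2 control ASO reads. Beside ACRO1_2506729 there were 3 such loci, with 34 U7 ASO reads and 0 control ASO reads. Over all listed repeat loci 45.7% had reads in U7 ASO libraries only. These neighbours stand beside ACRO1_dup19_1309715 and ACRO1_2506729 in the list, so they cannot be taken to repeat the measurement of either locus independently. Neither locus passed in limma-voom or when U7 ASO replicate 1 or 3 was left out, and the call was lost for ACRO1_2506729 also without U7 ASO replicate 2, without control ASO replicate 2 and under the replicate block, with adjusted p-values up to 0.278. Without its leading locus ACRO1 had 154 ± 30.2 CPM with the U7 ASO and 98.2 ± 45.2 CPM with the control ASO (SD, n = 3 each), and the groups overlapped. Its loci with a read numbered 11, 13 and 16 in the U7 ASO libraries and 4, 7 and 7 in the control ASO libraries. Over all repeat loci the numbers were 118352 to 160749 with the U7 ASO and 96631 to 120658 with the control ASO.

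SATR1 and SATR2 are satellite names spread over many loci with few reads. SATR1 had 83.7, 73.6 and 82.2 CPM in the U7 ASO libraries and 25.2, 54.2 and 27.5 CPM in the control ASO libraries. The U7 ASO values lay close together and above all control values, and the name did not pass (log2 fold change 1.16, SE 0.33, adjusted p = 0.0810, edgeR). It passed with DESeq2 (adjusted p = 0.0326), with limma-voom (adjusted p = 0.0352), without a count filter, under the replicate block and without control ASO replicate 2, over a range up to 0.268. Of its 65 listed loci a single one passed the filter, SATR1_dup49_2836344, with 36, 12 and 34 reads in the U7 ASO libraries and 2, 16 and 8 reads in the control ASO libraries (adjusted p = 0.588, edgeR). SATR1 loci with a read numbered 23, 32 and 33 with the U7 ASO and 11, 17 and 9 with the control ASO, and 38 of the 65 had reads in U7 ASO libraries only, against 12 in control ASO libraries only, where 45.7% and 26.8% of all listed loci did so. SATR2 had 49.8 ± 16.4 CPM with the U7 ASO and 29.2 ± 15.8 CPM with the control ASO (SD, n = 3 each), which overlap (log2 fold change 0.77, 95% interval -0.09 to 1.62). Its leading locus, SATR2_dup10_2313436, held 10, 24 and 35 reads with the U7 ASO and 14, 8 and 18 with the control ASO (adjusted p = 0.900, edgeR).

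SST1, a macrosatellite, had 69.6, 61.7 and 105 CPM in the U7 ASO libraries and 49.8, 62.8 and 30.4 CPM in the control ASO libraries. Control ASO replicate 2 lay above U7 ASO replicate 2, so the groups overlapped, and the name did not pass (log2 fold change 0.73, SE 0.33, adjusted p = 0.312, edgeR). SST1_dup44_2765521, its leading locus, held 35, 14 and 50 reads with the U7 ASO and 22, 9 and 0 with the control ASO (adjusted p = 0.671, edgeR). D20S16 had 16.9, 14.0 and 24.2 CPM in the U7 ASO libraries and 4.28, 8.05 and 6.75 CPM in the control ASO libraries. No D20S16 value overlapped between the groups, and the log2 fold change of 1.52 (SE 0.60) did not pass (adjusted p = 0.228, edgeR). The leading D20S16 locus, D20S16_dup8_5138474, was under the filter and held 16, 10 and 16 reads with the U7 ASO and 0, 0 and 2 with the control ASO. CER had 18.9 ± 10.0 CPM with the U7 ASO and 10.1 ± 5.17 CPM with the control ASO (SD, n = 3 each), and its 95% interval was -0.34 to 2.15. CER_dup4_2751775, its leading locus and under the filter, held 0, 16 and 24 reads with the U7 ASO and 8 in each control ASO library. SAR held 2 reads in each U7 ASO library and 0, 8 and 22 reads in the control ASO libraries, and LSAU held 2, 12 and 0 with the U7 ASO and 4, 18 and 5 with the control ASO. Both were under the count filter.

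MSR1, a minisatellite, had the most listed loci, 132. Its sum was 317, 238 and 260 CPM in the U7 ASO libraries and 376, 342 and 257 CPM in the control ASO libraries. The groups overlapped, and the 95% interval of the log2 fold change was -0.70 to 0.19 (adjusted p = 0.648, edgeR). Its 16 tested loci had 7 positive and 9 negative log2 fold changes with a median of -0.03, and 0 passed. The leading locus, MSR1_dup253_5034095, held 19, 39 and 33 reads in the U7 ASO libraries, below the 49, 89 and 67 reads of the control ASO libraries (log2 fold change -1.30, SE 0.46, adjusted p = 0.185, edgeR).

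TAR1, the telomere-associated repeat found next to chromosome ends, had 39.8 ± 11.8 CPM with the U7 ASO and 31.1 ± 11.4 CPM with the control ASO (SD, n = 3 each). The groups overlapped, and the 95% interval of the log2 fold change was -0.44 to 1.15. Its leading locus, TAR1_dup3_5239814, held 22, 8 and 70 reads with the U7 ASO and 8, 0 and 12 reads with the control ASO (adjusted p = 0.442, edgeR), and most of its U7 ASO reads came from replicate 3. REP522 had 30.8 ± 9.18 CPM with the U7 ASO and 34.0 ± 7.23 CPM with the control ASO, with a 95% interval of -0.93 to 0.64. REP522_dup17_5181166, its leading locus, held 8, 32 and 14 reads with the U7 ASO and 20, 20 and 31 with the control ASO (adjusted p = 0.925, edgeR).

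At the level of single loci, 66 of the 611 satellite loci passed the count filter, and of these 2 were raised, 1 was lowered and 63 did not pass. The background over all 14380 tested loci was 4.49% raised and 0.473% lowered. The median log2 fold change was 0.05 for the tested satellite loci and 0.06 for all tested loci. The satellite median turned to -0.10 with upper-quartile scaling, where that of all loci was -0.09, and to -0.04 with library totals as the scaling, where that of all loci was 0.01. In 8 of the 66 all 3 U7 ASO values exceeded all control values (background 12.2%), and in 4 they were all lower (background 8.36%). Among the 8 are ACRO1_dup19_1309715 and ACRO1_2506729, and among the 4 is HSAT4_dup12_4970317. These loci entered the test only through the group in which they had reads, so their lack of overlap was given beforehand. Of all 14380 tested loci, 425 had 0 control ASO reads. With these satellite loci counted, the shares of satellite loci were near the background at this level. Of the 611 satellite loci, 14 lay within 20 running numbers of a listed LTR12 or HERV9 locus. The share of all listed loci that lay so was not computed, so 14 cannot be called few or many. Among the 14 loci 0 passed the filter, and together they held 164 U7 ASO reads and 25 control ASO reads. Of these 14 loci, 2 were GSAT loci, 7 GSATII, 3 SATR1, 1 SATR2 and 1 TAR1. The count of raised and lowered satellite names was the same without them, and GSAT still passed. GSAT had 0 control ASO reads with or without these loci. The part of LTR12 or HERV9 loci in the satellite values was not tested.

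Reads were counted at more satellite loci in the U7 ASO libraries. They had a read at 258, 292 and 315 satellite loci, against 196, 250 and 212 in the control ASO libraries. At an equal number of repeat reads per library (1926892) the expected numbers were 257, 288 and 304 with the U7 ASO and 196, 250.0 and 212 with the control ASO. The groups did not overlap, and the ratio of means was 1.29. The same ratio over all repeat loci was 1.30, with 117099 to 156595 loci in the U7 ASO libraries and 95976 to 120658 in the control ASO libraries. Of the 611 satellite loci, 220 (36.0%) had reads in U7 ASO libraries only and 112 (18.3%) in control ASO libraries only, where over all listed loci these shares were 45.7% and 26.8%. HSAT4 went against this, with a read at 5, 6 and 5 loci in the U7 ASO libraries and at 13, 9 and 10 in the control ASO libraries.

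**Figure D5:**
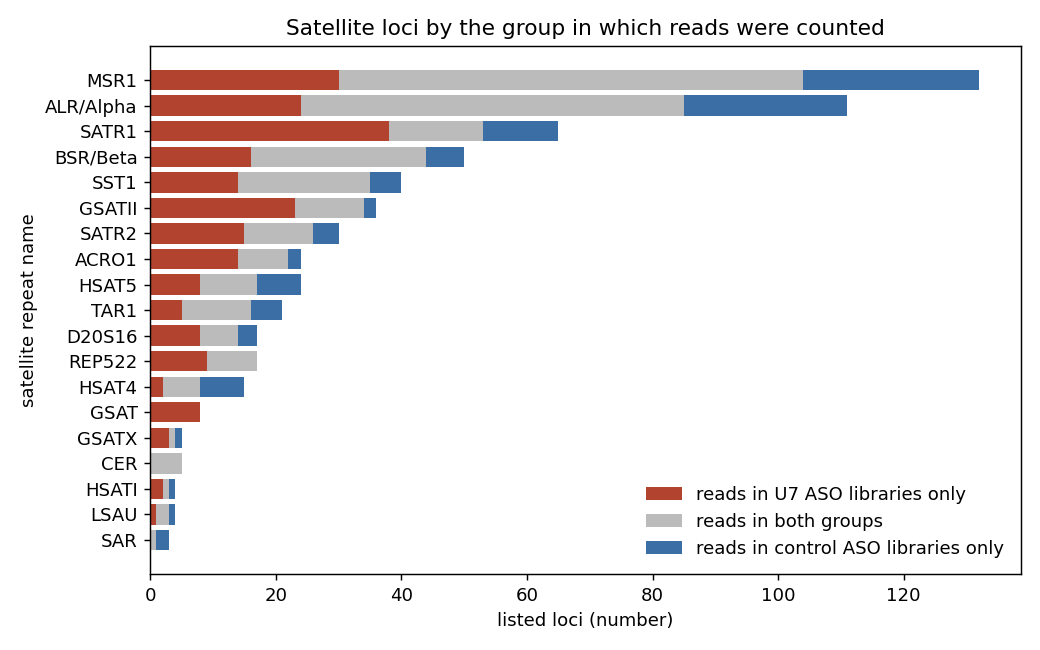
Listed loci of each satellite name, split by whether reads were counted in U7 ASO libraries only (red), in both groups (grey) or in control ASO libraries only (blue). In SATR1 38 of 65 loci and in GSATII 23 of 36 are in red, all 8 GSAT loci are in red, and in HSAT4 7 of 15 loci are in blue. Over all listed repeat loci 45.7% had reads in U7 ASO libraries only and 26.8% in control ASO libraries only.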

How the data were processed

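The authors deposited 1 table of raw read counts per repeat locus for each of the 6 libraries. The submitters' processing notes name the build GRCh38 and list featureCounts 1.5.0-p1 (Subread), STAR 2.5.3a and FastQC 0.11.5. Not given in the sources used here are the repeat annotation, the strand setting, the handling of multiply mapping reads and the counting of pairs, which bear strongly on near-identical satellite copies. A repeat name is the identifier without its copy and running numbers. Counts per locus and counts summed per repeat name were each fitted over the whole table with edgeR 4.0.16 in R 4.3.3 (quasi-likelihood, two-sided, TMM, filterByExpr with minimum count 10 and minimum total 15), and 3 satellite names and 545 satellite loci fell under the filter. CPM values use the effective library sizes of the same fit. Each standard error is the absolute log2 fold change over the root of the F statistic. Alternatives used limma-voom (limma 3.58.1) and DESeq2 1.42.0, among others. The code was tested on simulated data. All tested satellite names are named, with their leading loci, loci past the threshold and the 5 loci with the most reads. The satellite names and lists were chosen with earlier results of these data known. P-values set the group difference against the spread between these libraries, which is estimated with information shared over all tested names or loci.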

Additional observations from a re-analysis of the deposited data

How the results depend on the processing

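The counts of calls are small and moved with the setting. Of the 16 tested names 1 was raised, but 3 with DESeq2, 2 with limma-voom, 2 without a count filter and 2 without the leading locus of each name, and 0 to 2 when single libraries were left out. Lowered names numbered 0, but 1 without a count filter (alpha satellite) and 1 without leading loci (HSAT4). Satellite loci raised numbered 2, but 1 with limma-voom, 3 with DESeq2, 3 without a count filter and 0 to 3 when single libraries were left out. Satellite loci lowered numbered 1, but 0 in limma-voom and 0 without a count filter, and 0 in every fit that left out a library. The cause of these shifts was not tested. The difference in the mean satellite share of repeat reads (U7 ASO minus control ASO) was 0.072 percentage points and -0.018 without ACRO1_dup4_5177206. It stayed between 0.029 and 0.116 when single libraries were left out, and was 0.104 with ribosomal RNA names out of the denominator, a setting added after the data were seen. Log2 fold changes turned sign only for values that did not pass. Without leading loci TAR1 had -0.040 and REP522 0.11. Over the fits that left out 1 library, REP522 ran from -0.40 to 0.042, ALR/Alpha_dup24_610268 from -0.35 to 0.40 and BSR/Beta_dup317_4969906 from -0.12 to 0.74, and REP522 and ALR/Alpha_dup24_610268 turned without U7 ASO replicate 1 or control ASO replicate 3, BSR/Beta_dup317_4969906 without control ASO replicate 1. RLE, upper-quartile and library-total scaling left the counts of raised and lowered names and loci as they were. The tested satellite loci split into 35 positive and 31 negative with TMM, 30 and 36 with upper-quartile scaling, and 31 and 35 with library totals. The replicate numbers were not taken to pair the libraries. Deviations of same-numbered libraries correlated at 0.11, -0.03 and 0.12 over repeat names. Of the 3 U7 ASO libraries, 1 correlated best with a control library of another number. With 3 libraries per group these correlations cannot decide whether the libraries were paired. With a replicate block, 3 names were raised and 1 lowered, and 1 locus was raised and 0 lowered. Reads per name were few, since 12 of the 16 tested names held fewer than 1.5% of the satellite reads each, and whether depth set which names passed was not tested.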
